A study of Mus musculus with 9 samples.

Results

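The long non-coding RNA region probes of a mouse liver expression array were examined in 3 groups of mice. These probes carry a genomic interval of the mouse assembly mm9 with a strand letter (F, forward, or R, reverse) in place of a gene accession. The array holds 16251 of them among 55681 distinct non-control probes. A member was selected on its measured signal: its spot had to be well above background, by the flag of the scanner software, on each of the 3 arrays of some group. This rule kept 4213 probes (25.9%), which lie in 2254 distinct named regions. Of these members, 4189 carry an interval and 24 carry the name of a known transcript such as H19 or NEAT1. The median interval was 12276 bp long (quartiles 4306 and 28358.5 bp), against 8548 bp for the 2364 intervals without a member. Up to 10 members shared an interval, so probes were not treated as independent.

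The groups were STAM-NON, STAM-INS and Normal, with 3 male mice each and 1 array per mouse, all at 20 weeks of age. STAM mice are C57B/6 J mice that received a low dose of streptozotocin, a toxin of the insulin-secreting beta cell, soon after birth and later a high-fat diet, and they develop steatohepatitis and then liver cancer. STAM-NON mice had no further treatment, STAM-INS mice received subcutaneous insulin glargine, and Normal mice had neither the toxin nor the high-fat diet, so that a difference from Normal covers both. Whether the liver pieces held tumour tissue is not given in the sources used here. Values are log2 of the background-subtracted Cy3 signal minus the 75th percentile of the array (centred log2 signal), so that 0 stands for that percentile. Levels are set side by side within a probe and not between probes. In whole liver, fewer cells of a type and less RNA per cell cannot be told apart.

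Long non-coding RNAs are transcripts without a long open reading frame. Some act on chromatin or scaffold nuclear bodies, some host microRNAs, and for most intervals of this kind no function is known. In liver they are best known from imprinted genes such as H19, which is abundant in the fetal liver and low in the adult organ.

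Before any comparison, 3 STAM arrays stood apart in detection. Region probes well above background numbered 6597 and 7592 on STAM-NON replicates 1 and 3 and 8132 on STAM-INS replicate 1, against 3927 to 5052 on the other 6 arrays. The mean share was 27.7% ± 3.47 for Normal, 34.4% ± 13.7 for STAM-INS and 37.5% ± 11.04 for STAM-NON (SD, n = 3). Probes with a RefSeq mRNA accession (NM probes) followed the same order, at 63.4% ± 1.85, 68.1% ± 6.80 and 70.4% ± 6.198. Moreover, the STAM arrays lay on 1 slide and the Normal arrays on another, so slide and group cannot be told apart in any comparison with Normal. The STAM-NON arrays and STAM-INS replicate 1 lay in row 1 of their slide. The other STAM-INS arrays and the Normal arrays lay in row 2. The 3 arrays with high detection were thus all in row 1, and between STAM-NON and Normal row and group coincide. All 8 hepatocyte markers checked, such as Alb and Ttr, were well above background on all 9 arrays, and their summed signal, relative to the 75th percentile, ranged from 3545 to 4866 in STAM-NON, 4809 to 5525 in STAM-INS and 5377 to 5545 in Normal, without overlap of STAM-NON and Normal. The summed signal of 7 macrophage markers ranged from 186 to 322 in STAM-NON, 153 to 365 in STAM-INS and 89.3 to 135 in Normal, and that of 5 cholangiocyte markers from 3.68 to 9.21, 3.49 to 5.41 and 1.59 to 2.84. By limma, 0 of the 8 hepatocyte markers differed between STAM-NON and Normal at an adjusted p under 0.05. In STAM-NON 2 of the 7 macrophage markers were higher, and 3 of the 4 cholangiocyte markers tested. Of 8 stellate and fibroblast and 5 endothelial markers 0 differed. The part of depth, slide and these cells in the results below was not tested.

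**Figure D1:**
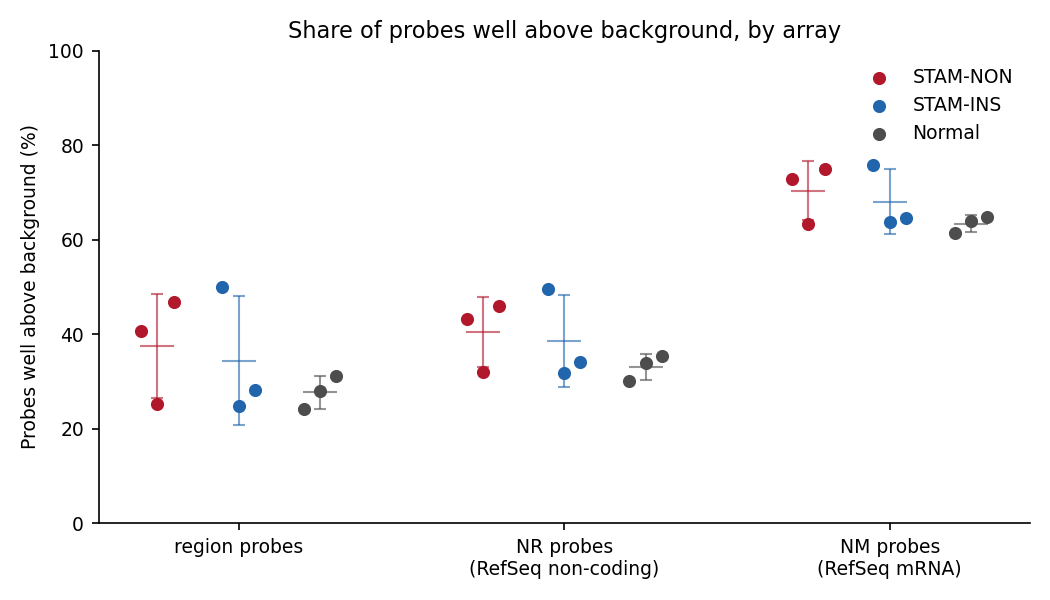
Share of probes well above background (%) on each of the 9 arrays, for region probes, RefSeq non-coding (NR) probes and RefSeq mRNA (NM) probes; points are arrays, and bars are the mean and SD of 3. For region probes 3 STAM arrays lie between 40.6% and 50.04%, and the other 6 between 24.2% and 31.1%.

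Of the 4213 members, 3110 (73.8%) were well above background on all 9 arrays, a condition that does not depend on group. Another 332 passed through STAM-NON alone, 151 through STAM-INS alone and 151 through Normal alone. A probe that passed through 1 group alone had to differ, and counts of calls are therefore given for the 3110 as well. Only 24 members were above background on no more than the 3 arrays that admitted them, and their median level in the best group was -3.06 on the centred log2 scale. Just outside the rule were 2300 region probes that reached background on 2 of 3 arrays at best, with a median of -3.88. For the 3110 probes replicates of a probe had a median SD of 0.21 (STAM-NON), 0.19 (STAM-INS) and 0.15 (Normal).

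Among transcripts with a name, H19 differed most between STAM and Normal livers. H19 is a paternally imprinted, maternally expressed non-coding RNA that neighbours Igf2, is abundant in fetal liver and hosts the microRNA miR-675. RefSeq places both mature strands of miR-675 inside H19 on the reverse strand of chromosome 7 (GRCm38.p6, a later assembly than that of the array). They are shown because they are the defined small RNA products of the transcript with the largest change here. Capitals mark the seed, bases 2 to 8, and the array values are those of probes to H19, not of these microRNAs.
mmu-miR-675-5p, chr7:142577112-142577133: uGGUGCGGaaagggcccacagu
mmu-miR-675-3p, chr7:142577078-142577099: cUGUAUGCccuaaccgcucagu

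All 5 H19 probes of the array were members, well above background on every STAM array and on no more than 1 Normal array. They passed the rule through the STAM groups alone, so a difference from Normal was built into their selection. The probe with the largest difference stood at 3.18, -0.22 and 2.22 on the STAM-NON arrays, at 1.86, 1.93 and -0.54 on the STAM-INS arrays, and at -5.75, -6.00 and -6.18 on the Normal arrays, where it was not well above background. Thus every STAM array lay above every Normal array, and STAM-NON replicate 2 and STAM-INS replicate 3 were the low ones of their groups. With a bound in place of the unmeasured Normal level (on each array the lowest signal of any detected probe, or the probe's own where that was higher), the signal exceeded that of Normal at least 49.1-fold in STAM-NON and at least 31.4-fold in STAM-INS (adjusted p = 0.0049 and 0.0040). All adjusted p-values come from limma, corrected by Benjamini and Hochberg over the 26289 probes tested, and a probe was called under 0.05. They test the signals as read, also where these were not well above background, and not the bounds. For the other probes without a detected Normal array, the bounds were at least 11.51-fold and 10.1-fold in STAM-NON. The remaining pair was detected on 1 Normal array each and differed by 5.12 ± 0.80 (SE, adjusted p = 0.011) and by 4.17 ± 1.22 (adjusted p = 0.051) on the log2 scale. Between STAM-INS and STAM-NON the 5 probes differed by -0.72 to -0.23, none of them past the threshold (adjusted p = 0.83 or more). Of the 5 probes 4 were called against Normal, and these calls were lost without the 3 arrays with the most spots above background (adjusted p = 0.074 to 0.15) and with the row of the slide as a block (adjusted p = 0.18 to 0.28). With normexp background correction the 4 were called (adjusted p = 0.013 to 0.036), and the difference of 5.12 became 3.19. The 3 probes with a bound then differed by 3.81, 2.26 and 1.78, below their log2 bounds of 5.62, 3.52 and 3.34. The bounds thus hold for the main background subtraction only.

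**Figure D2:**
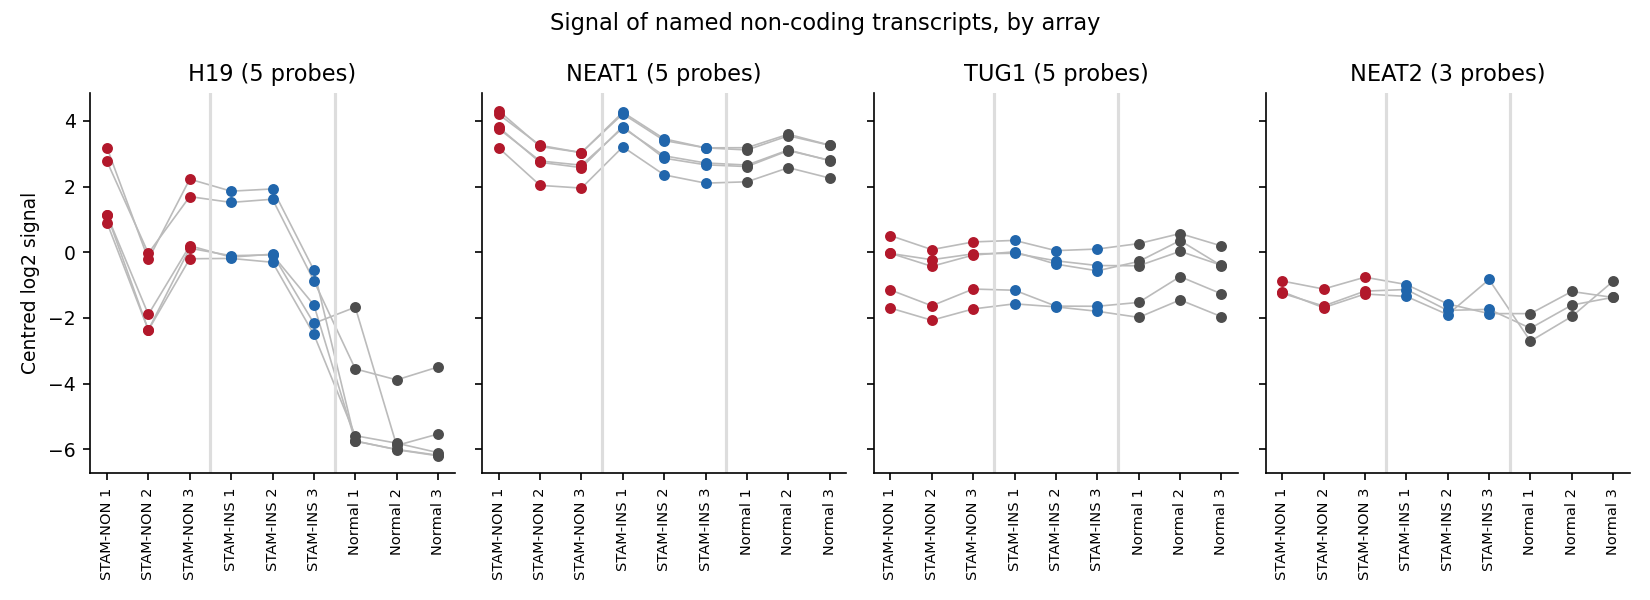
Centred log2 signal of the member probes of H19, NEAT1, TUG1 and NEAT2 on each array; a line joins the values of 1 probe, colours mark the groups. The H19 probes lie between -2.50 and 3.18 on STAM arrays and between -6.19 and -1.67 on Normal arrays, and 1 of the 5 overlaps between groups through 1 Normal array. STAM and Normal arrays overlap for every plotted probe of NEAT1 and TUG1, and for those of NEAT2 except 1, where STAM-NON lies above Normal.

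None of the nuclear RNAs with known structural roles was called by the probes that carry their names. Intervals were not matched to genes, so other region probes may lie in transcripts named here. NEAT1, the scaffold of paraspeckles, was measured by 5 probes, and its brightest stood at 4.31, 3.22 and 3.03 in STAM-NON, 4.21, 3.40 and 3.18 in STAM-INS and 3.18, 3.59 and 3.26 in Normal. STAM-NON replicate 1 and STAM-INS replicate 1 were the high arrays, and the groups overlapped. Over the 5 NEAT1 probes the difference between STAM-NON and Normal was 0.06 to 0.21 (adjusted p = 0.69 or more). For NEAT2, also called Malat1, a splicing-speckle RNA, 3 probes differed by 0.41 to 0.56 (adjusted p = 0.15 or more), 1 of them without overlap of STAM-NON and Normal, and for TUG1, 5 probes differed by -0.12 to 0.16 (adjusted p = 0.50 or more). RefSeq probes of the same transcripts gave 0.29 ± 0.38 for Neat1, 0.47 ± 0.25 for Malat1 and -0.03 to 0.17 over 3 probes for Tug1 (SE), none of them called.

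Region and RefSeq probes read KCNQ1ot1, the imprinted antisense RNA of the Kcnq1 domain, differently. It was -0.28 ± 0.10 and -0.53 ± 0.24 (STAM-NON minus Normal, adjusted p = 0.091 and 0.15) by its region probes, and 1.15 ± 0.21 (adjusted p = 0.015) by its RefSeq probe. That RefSeq probe stood at -0.88, -0.90 and -0.51 in STAM-NON against -2.36, -1.66 and -1.71 in Normal. NRON, a repressor of NFAT trafficking, was negative in all 3 probes, at -0.48 ± 0.21 and -0.32 ± 0.16 in the region probes (adjusted p = 0.14 and 0.19) and -0.48 ± 0.12 in the RefSeq probe (adjusted p = 0.032). HOTAIR passed through Normal alone with 1 probe and PINC through STAM-INS alone with 1 probe. XIST, TSIX, lincP21 and BRN1-A had no member.

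A list of 63 known non-coding RNA genes was looked up among the RefSeq probes, of which 27 had a tested probe, 4 of them given above (Kcnq1ot1, Malat1, Neat1 and Tug1). Of the 27, 5 were higher and 1 lower in STAM-NON than in Normal, beside 6.3% and 9.76% of all tested probes, and none was called between STAM-INS and STAM-NON. The higher genes were Snhg18 (1.61 ± 0.16, adjusted p = 0.0033), Mirg, a host of microRNAs in the imprinted Dlk1-Dio3 cluster (1.82 ± 0.34, detected on 1 of 3 Normal arrays), Kcnq1ot1, Pvt1, the neighbour of Myc (0.94 ± 0.19), and Lockd (2.27 ± 0.66, detected on 2 of 3 Normal arrays). Mir22hg, the host of miR-22, was lower, at -0.64 ± 0.17. H19 had no RefSeq probe here.

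STAM-NON and Normal livers were compared to see which regions differ in the untreated disease model. Of the 4213 members, 668 were called (15.9%), 158 higher and 510 lower in STAM-NON, beside 16.1% of all 26289 tested probes (6.3% higher and 9.76% lower). Among the 3110 probes measured on every array, 508 were called, 63 higher (2.03%) and 445 lower (14.3%). Over all probes of that kind 4.87% were higher and 10.4% lower, and over the 15508 NM probes 5.997% and 8.98%. Thus the total share called was near the background, whereas the split held fewer rises and more falls. The 445 lower probes lie in 371 regions with a median difference of -0.70, and the 63 higher probes in 42 regions with a median of 0.92. The median difference of all members was -0.18 against -0.13 for all tested probes.

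This split depended in part on scaling. Under the main scaling 87.6% of the called probes among the 3110 were lower, and under the other 4 scalings and normexp between 67.5% (75th percentile over probes detected on all arrays, 101 higher and 210 lower) and 93.8% (median centring). Spike-in centring gave 64 higher and 144 lower. Over all members, spike-in centring gave 173 higher (4.11%) and 174 lower (4.13%), beside 5.98% and 2.73% of all tested probes, and the percentile over detected probes gave 218 higher (5.17%) and 244 lower (5.79%), beside 7.96% and 4.04%. The same settings moved the median of all tested probes from -0.30 to 0.03, and the median of the members differed from it by -0.04 to -0.12 in each. For NM probes the lower share ranged from 29.1% to 66.1% under these settings. By mean signal, the share of region probes that were lower was 7.23% in the dimmest of 3 groups of equal size, 13.3% in the middle group and 22.4% in the brightest. In the same ranges 4.92%, 5.60% and 10.7% of NM probes were lower, and 4.65%, 11.8% and 15.6% of NR probes. The number of calls rested on few arrays. It was 279, 318, 222, 223 and 175 without STAM-NON replicates 1 or 3 or Normal replicates 1, 2 or 3 in turn, 42 (30 higher, 12 lower) without the 3 arrays with the most spots above background, and 6 with the slide row as a block.

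**Figure D3:**
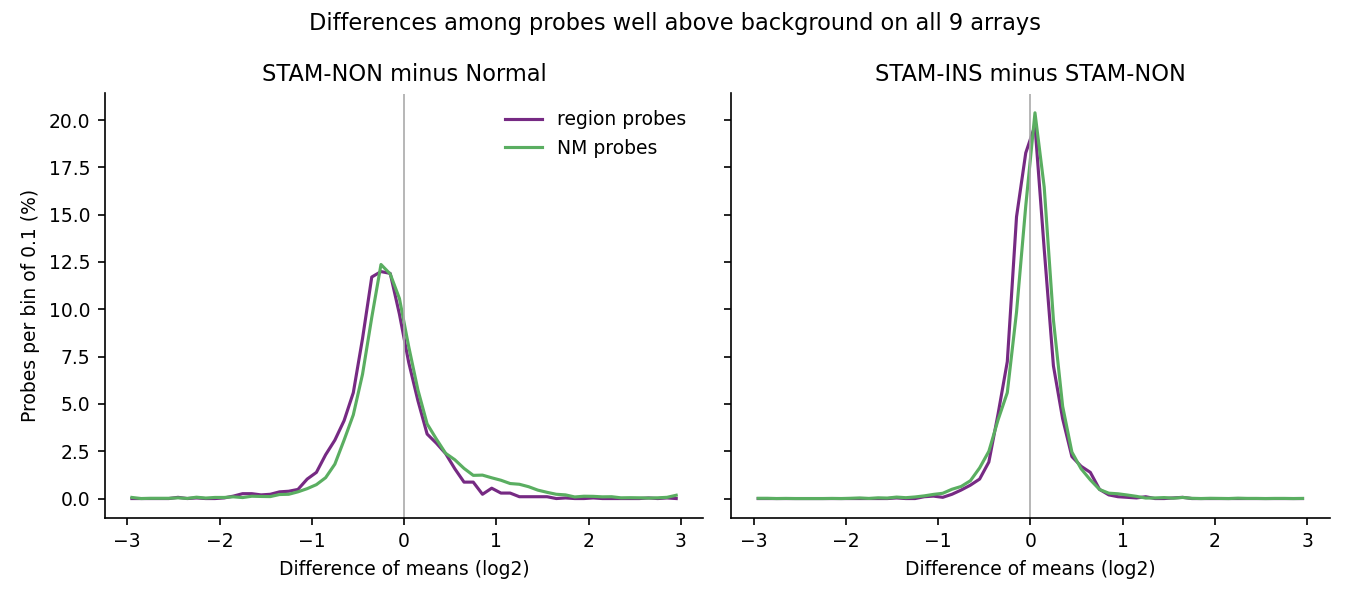
Distribution of the difference of means (log2, bins of 0.1, values beyond 3 in the end bins) for the 3110 region probes and 15508 NM probes well above background on all 9 arrays, STAM-NON minus Normal (left) and STAM-INS minus STAM-NON (right). On the left the region curve lies to the left of the NM curve and has a thinner right side, and on the right both curves centre near 0.

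The largest rise among regions measured on every array was in chr19:5771425-5848475 (forward), where 1 probe stood at 7.43, 5.45 and 7.19 in STAM-NON, 5.45, 7.24 and 5.46 in STAM-INS and 3.68, 3.71 and 4.03 in Normal. The difference was 2.88 ± 0.61 (7.37-fold, adjusted p = 0.022). A neighbouring probe of the interval, at 2.67 ± 0.67 (adjusted p = 0.034), was high on the same 3 arrays, STAM-NON replicates 1 and 3 and STAM-INS replicate 2. The other 8 probes of this interval ran from -1.20 to 0.22, 1 of them called lower. It was the only interval, of 358 with at least 3 probes measured on every array, with calls in both directions.

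The same high arrays recurred in chr1:175660642-175671878 (reverse), at 2.72, 1.45 and 2.70 in STAM-NON, 1.85, 2.65 and 1.47 in STAM-INS and 0.08, 0.17 and 0.44 in Normal, a difference of 2.05 ± 0.39 (adjusted p = 0.017). STAM and Normal arrays did not overlap there. Nearby, chr1:175654606-175672031 (reverse) and chr1:175705225-175717250 (reverse) rose by 1.19 ± 0.29 and 1.17 ± 0.29 (adjusted p = 0.031 and 0.034). On chromosome 15, chr15:32167516-32174417 (reverse) stood at 1.03, 0.61 and 0.75 in STAM-NON, 0.44, 0.65 and 0.42 in STAM-INS and -0.73, -0.54 and -1.08 in Normal, with little spread within groups (1.58 ± 0.17, adjusted p = 0.0042). The nearly identical chr15:32167516-32174427 (reverse) gave 1.53 ± 0.18. Further rises were in chr5:123582742-123588202 (forward), by 1.34 ± 0.20 (adjusted p = 0.010), and chr13:108653722-108654406 (reverse), by 1.13 ± 0.32 (adjusted p = 0.047), which turned to -0.15 (adjusted p = 0.81) with the slide row as a block.

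The largest fall was in chr19:36699712-36763966 (reverse), with -1.45, -1.11 and -2.64 in STAM-NON, -0.06, -0.21 and -0.26 in STAM-INS and 0.09, 1.09 and 1.03 in Normal. STAM-NON minus Normal was -2.47 ± 0.40 (adjusted p = 0.012), and the STAM-INS arrays lay between the other groups, 1.55 ± 0.40 above STAM-NON (adjusted p = 0.40, not called). In chr7:134369091-134376468 (forward) the values were 0.28, 2.07 and 0.94 in STAM-NON, 1.89, 1.09 and 2.24 in STAM-INS and 3.24, 3.10 and 3.57 in Normal (-2.21 ± 0.45, adjusted p = 0.020). The region chr12:82495575-82516300 (forward) was even within groups, at -2.14, -2.34 and -2.73, then -2.61, -2.70 and -2.73, then -0.37, -0.75 and -0.54 in the same order of groups. Its difference of -1.85 ± 0.17 (adjusted p = 0.0025) was still called without the 3 arrays with the most spots above background, at -1.78 (adjusted p = 0.041).

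Other falls of this size were in chr5:107503800-107515575 (reverse, -1.99 ± 0.50), chr6:129151512-129208737 (reverse, -1.86 ± 0.27), chr19:5834117-5835940 (reverse, -1.85 ± 0.39), chr8:74431707-74442440 (forward, -1.81 ± 0.40) and chr16:30170306-30223193 (reverse, -1.71 ± 0.38), with adjusted p between 0.0087 and 0.034. In all 5, STAM-NON replicate 2 was the array nearest to Normal among its group; this was the STAM-NON array with the fewest region probes above background. By its coordinates, chr19:5834117-5835940 lies inside chr19:5771425-5848475, the interval of the largest rise, on the other strand. None of the 16 probes was called between STAM-INS and STAM-NON.

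**Figure D4:**
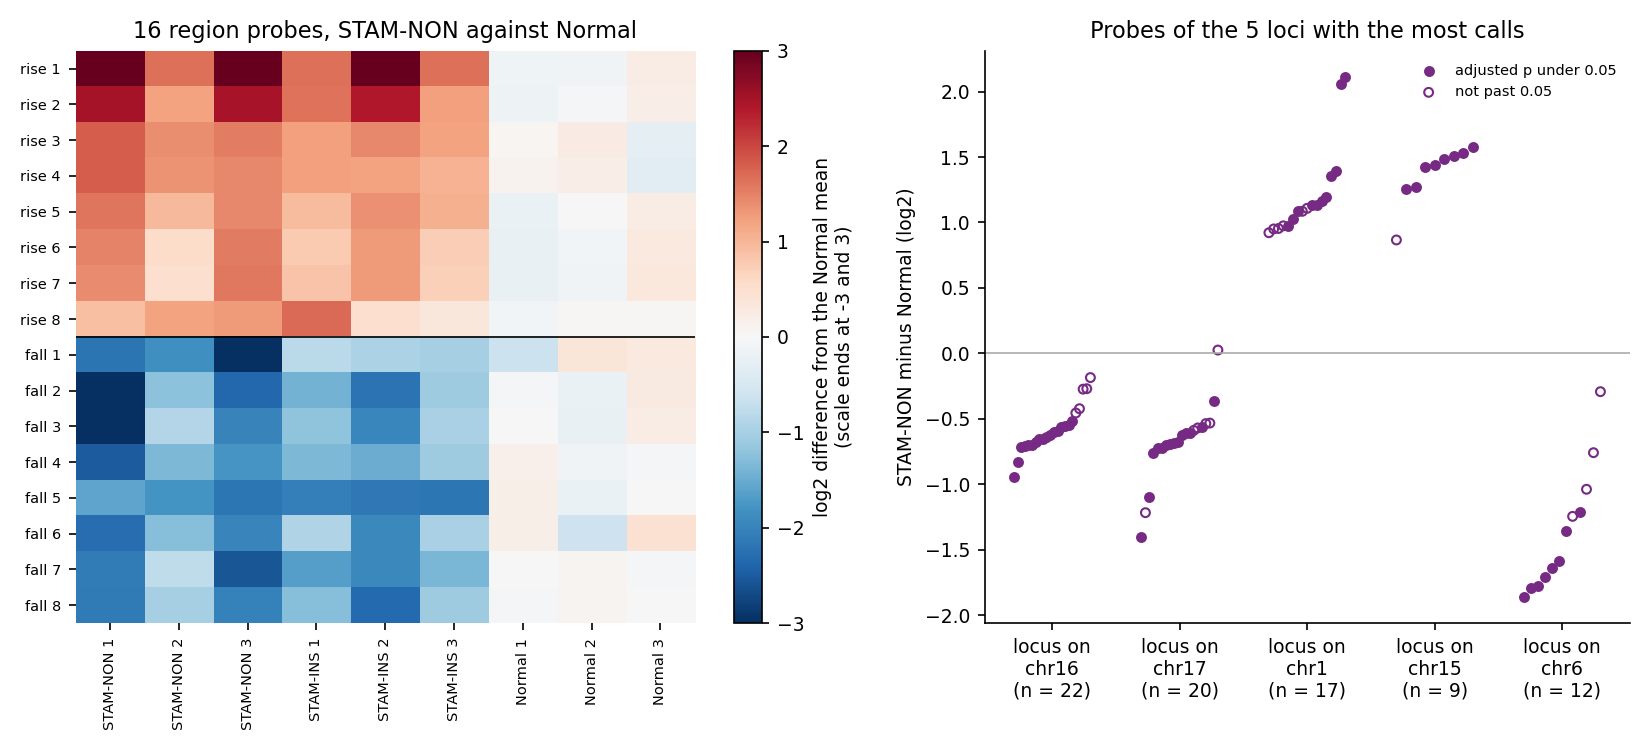
Left, log2 difference from the Normal mean on each array for the 8 largest rises and 8 largest falls among probes measured on all 9 arrays, ranked by size from top to bottom within each set. Right, STAM-NON minus Normal (log2) of every member probe in the 5 loci with the most calls, filled where called; within each locus the called probes share 1 direction.

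Some members were not above background on any array of the dimmer group, and for these a bound is given. They passed the rule only through groups where they were brighter, so a difference was built into their selection. Their adjusted p-values test the signals as read and not the bounds. After H19, the largest rise was in chr1:135956616-135957485 (reverse), at -1.68, -2.14 and -0.75 in STAM-NON, -0.86, -0.16 and -1.72 in STAM-INS and -4.04, -3.73 and -5.47 in Normal. STAM-NON exceeded Normal at this probe at least 4.95-fold (adjusted p = 0.018). Another probe of the interval was detected on all 3 arrays of each group. It differed by 0.88 ± 0.29 on the log2 scale (1.84-fold, adjusted p = 0.070, not called). The region chr17:12941161-12944859, listed without a strand, was at least 4.41-fold higher (adjusted p = 0.0024), with -1.61, -2.03 and -1.60 against -4.45, -4.08 and -4.19. Both groups were tight and did not overlap. In the other direction, chr14:28231577-28242027 (forward) stood at -7.03, -5.92 and -6.96 in STAM-NON, -7.12, -6.01 and -6.00 in STAM-INS and -1.54, -1.81 and -2.94 in Normal, at least 5.14-fold lower in STAM-NON (adjusted p = 0.0039). This probe was not well above background on any of the 6 STAM arrays and was so on all 3 Normal arrays. The fall is not a trait of the whole interval. Another probe of it was detected on all 9 arrays, at -0.46, -0.56 and -0.91 in STAM-NON and -0.47, -0.60 and -0.17 in Normal. The regions chr15:84737071-84744158, chr15:90156889-90184564 and chr13:49488457-49493732 (all forward) were at least 2.78-fold, 2.44-fold and 2.41-fold lower in STAM-NON. In all, 62 called members had such a bound for a rise and 5 for a fall, where 191 members had no detected Normal array and 13 no detected STAM-NON array. No share over all tested probes is given for these counts, and they are not read as a result.

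Probes of the same interval mostly moved together. Over the 358 intervals with at least 3 probes measured on every array, the median SD of the difference between STAM-NON and Normal among the probes of an interval was 0.14, against 0.44 over all 3110 probes. In 218 of them all probes had the same sign, while the median difference of the 3110 probes was itself -0.22. At least 1 probe was called in 103, and all probes in 10, of which 7 were lower and 3 higher. Both strands of an interval had members in 397 of 1848 intervals. Both strands were called lower in 18 of these and higher in 3, in 10 the strands were called in opposite directions, and in 161 only 1 strand was called. No share over all tested probes is given for these counts of intervals, and they are a description. The share of members called ranged from 10.5% on chromosome X to 24.5% on chromosome 19, beside 16.1% of all tested probes irrespective of chromosome. On each of the 20 chromosomes more members were called lower than higher under the main scaling, on chromosome 1 by 25 against 24.

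With intervals within 100 kb joined, the members made 1091 loci, of which the 5 with the most calls are described here. The locus chr16:43623175-43642715 held 22 members in 4 intervals of both strands, all with a negative difference (-0.94 to -0.19) and 16 of them called. Normal livers had a mean signal of 1.11 ± 0.03 there, against 0.53 ± 0.19 for STAM-NON and 0.59 ± 0.15 for STAM-INS (SD, n = 3). The locus chr17:26911032-27024356 held 20 members with 14 called lower and a median of -0.65. Rises ran together over chr1:175653557-175717250, where 17 members gave 0.92 to 2.11 and 11 were called, and over chr15:32167516-32174427, where 8 of 9 members were called with a median of 1.44. In chr6:129151512-129208737 all 12 members were negative (-1.86 to -0.29) and 8 were called. These loci were ranked by their calls, so the counts are a description.

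In 4 intervals all 10 probes of the array were members. In chr17:26911397-26917047 (forward) the 10 probes gave -0.73 to -0.53 between STAM-NON and Normal, 8 of them called, and -0.85 to -0.75 between STAM-INS and STAM-NON, none of them called (adjusted p = 0.19 or more). Averaged over its probes, this interval stood at 1.58, 1.79 and 1.34 in STAM-NON, 1.02, 0.74 and 0.54 in STAM-INS and 2.37, 2.17 and 2.09 in Normal, so that none of the 3 groups overlapped. As 1 value, the interval was -0.64 ± 0.17 for STAM-NON against Normal (adjusted p = 0.037), -0.80 ± 0.17 for STAM-INS against STAM-NON (adjusted p = 0.28) and -1.44 ± 0.17 for STAM-INS against Normal (adjusted p = 0.0032).

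For chr16:43623581-43642715 (forward) the 10 probes gave -0.83 to -0.27 with 8 called, and 0.03 to 0.57 between the STAM groups with none called. All 10 probes of chr4:129497990-129515290 (forward) were positive against Normal (0.47 to 1.15) but none was called alone (adjusted p = 0.050 or more). As 1 value this interval was at -1.86, -1.37 and -1.52 in STAM-NON against -2.22, -2.42 and -2.07 in Normal, a difference of 0.65 ± 0.17 (adjusted p = 0.035). Of the 4 intervals with 9 members, chr11:95627874-95640824, chr5:74487385-74497428 and chr8:119732348-119749198 (forward) and chr6:116092274-116144199 (reverse), none had a call in any comparison, and their averages differed from Normal by -0.27 to 0.17 in STAM-NON (SE 0.13 to 0.21).

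STAM-INS and STAM-NON livers were compared to see which regions differ with insulin treatment. Among the 3110 members measured on every array none was called by limma, with the lowest adjusted p at 0.19. With the slide row as a block 3 of them were called lower, in chr12:112224193-112225328 (reverse), chr14:28231577-28242027 (forward, another probe than the fall above) and chr2:22782700-22801900 (forward), named after their values were seen. The first stood at -0.85, 1.78 and 1.67 in STAM-INS and at 2.05, 1.90 and 1.79 in STAM-NON, and in each of the 3 only STAM-INS replicate 1, the single STAM-INS array in the row of the STAM-NON arrays, was far below the rest. At an unadjusted p under 0.05 there were 235 (7.56%, 114 higher and 121 lower), beside 8.26% of all tested probes of that kind. Of these 3110, 99.5% differed by no more than 1 on the log2 scale, with a median SE of 0.17.

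Of all 4213 members 9 were called, beside 0.0913% of all tested probes, and each was lower in STAM-INS, beside 0.0799%. All 9 were well above background on the 3 STAM-NON arrays and on no STAM-INS or Normal array. They thus belong to the members that passed through STAM-NON alone, which had to differ, and the count is not read as a result about insulin. Their signals were dim, 22.3 to 92.4 units in STAM-NON and 2.61 to 8.70 units elsewhere, where the 75th percentile of an array was 225 to 300.0 units. The bounds on the 9 falls ran from at least 2.13-fold to at least 4.61-fold. Among them 1 lies on chromosome 18 and is counted only.

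The probe in chr4:116790373-116797823 (forward) stood at -1.95, -2.03 and -2.02 in STAM-NON, at -5.73, -5.83 and -5.75 in STAM-INS and at -5.68, -5.66 and -6.10 in Normal. It was at least 4.48-fold lower in STAM-INS than in STAM-NON (adjusted p = 3.58e-05) and at least 3.70-fold higher in STAM-NON than in Normal. In chr5:105032961-105037248 (forward) the values were -2.15, -2.76 and -2.89 in STAM-NON and -5.95, -5.95 and -5.98 in STAM-INS, at least 2.96-fold lower (adjusted p = 0.00058). The other named calls were chr8:59966759-59989059 (reverse), chr12:88216358-88221647 (reverse), chr8:37582157-37582802 (forward), chr12:33808493-33829143 (forward), chr14:67585234-67596823 (forward) and chr12:110845020-110850870 (forward), at least 2.13-fold to 3.42-fold lower (adjusted p = 0.0018 to 0.034).

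The 8 intervals hold 40 other probes. Of these 8 were members, and they differed between STAM-INS and STAM-NON by -0.34 to 0.09, none of them called. In chr14:67585234-67596823, for instance, the called probe was at least 2.13-fold lower, and 3 others, detected on all 9 arrays, gave -0.06 to 0.03. The companion of the called probe in chr8:37582157-37582802 stood near 3.69 in STAM-NON and 3.66 in STAM-INS. A further 14 of the 40 were not above background on any array. Some dim probes outside the members were detected on STAM-NON arrays alone, such as 1 in chr12:33808493-33829143 on 2 arrays (mean -3.74, against -5.28 in STAM-INS, not well above background). Others went the opposite way. Another probe of that interval was detected on 1 STAM-INS array alone (mean -3.74, against -5.79 in STAM-NON). The number of calls was 4 without STAM-INS replicates 2 or 3 or without Normal replicate 2, and 2 with normexp background correction.

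**Figure D5:**
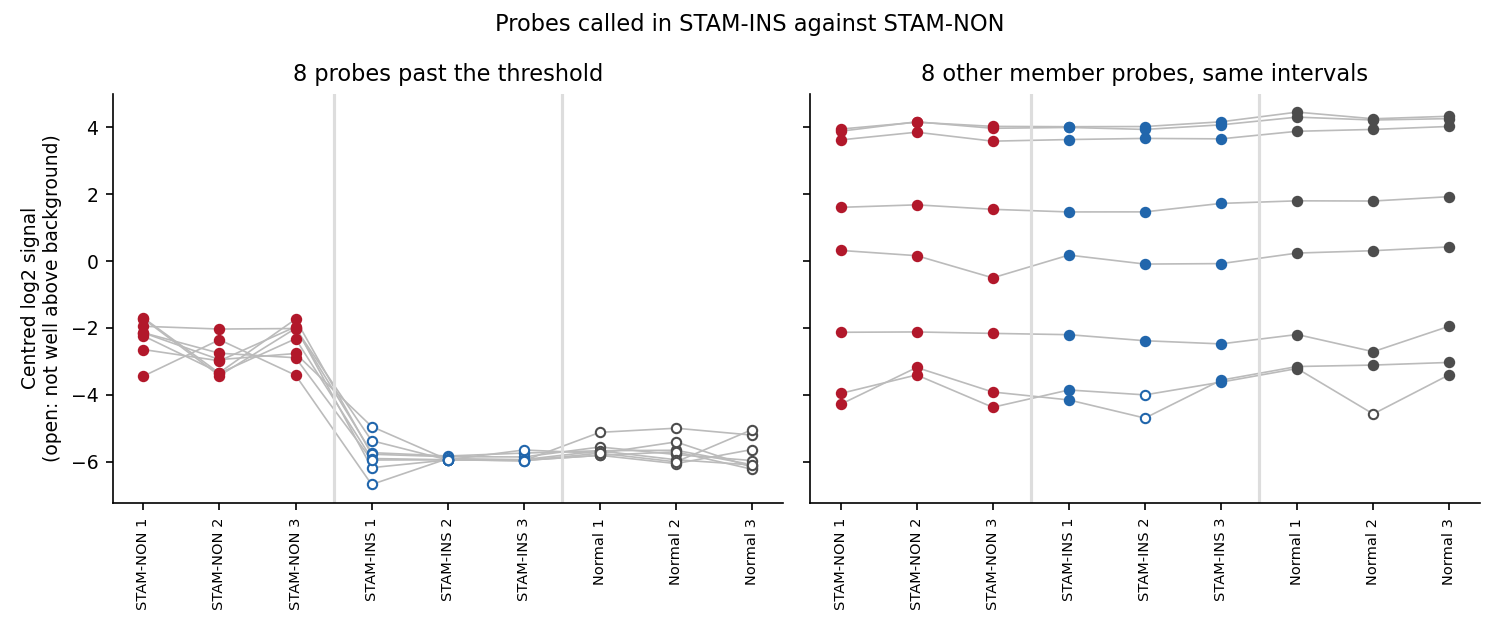
Centred log2 signal on each array of the 8 named probes called in STAM-INS against STAM-NON (left) and of the 8 other member probes of the same intervals (right); a line joins the values of 1 probe, and open points are not well above background. The called probes are detected on the 3 STAM-NON arrays alone, while the other probes differ between the STAM groups by -0.34 to 0.09.

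STAM-INS and Normal livers gave a count close to that of STAM-NON and Normal. These comparisons share the Normal arrays. Of the 4213 members 730 were called, 145 higher and 585 lower in STAM-INS, beside 13.9% of all tested probes (5.15% higher and 8.72% lower). Among the 3110 probes measured on every array 54 were higher (1.74%) and 499 lower (16.05%), beside 4.19% and 9.04% of all probes of that kind. The count was 233 and 356 without STAM-INS replicates 2 or 3, 468 without STAM-INS replicate 1, and 285, 307 and 221 without Normal replicates 1, 2 or 3 in turn.

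Among regions measured on every array, the largest rise was in chr2:119697845-119719245 (forward), which stood at 0.23, 1.41 and 0.45 in STAM-INS and at -2.60, -2.59 and -2.93 in Normal (3.40 ± 0.76, 10.6-fold, adjusted p = 0.025). The STAM-NON arrays were spread over -1.33, -2.60 and 0.93, and their difference from Normal was 1.71 ± 0.76 (adjusted p = 0.15). A probe of chr1:135956616-135957485 (reverse) rose by 1.78 ± 0.29 (adjusted p = 0.0090), from -2.02, -1.98 and -2.44 in Normal to -0.60, -0.01 and -0.49 in STAM-INS. The rises in chr19:5771425-5848475 and chr1:175660642-175671878 were again among the largest, at 2.24 ± 0.61 and 1.76 ± 0.39.

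The largest fall among them was in chr5:106982442-107045717 (reverse), with -3.18, -3.37 and -1.52 in STAM-INS and -0.05, -0.62 and 0.31 in Normal (-2.57 ± 0.58, adjusted p = 0.026). In chr12:82495575-82516300 (forward) the difference was -2.13 ± 0.17, and in chr12:82500406-82501102 (forward), which lies inside it, -2.04 ± 0.17 (adjusted p = 0.0017 for each). The latter stood at -0.23, -0.34 and -0.92 in STAM-NON, -0.91, -0.86 and -0.88 in STAM-INS and 1.23, 1.18 and 1.07 in Normal, so that both STAM groups lay below every Normal array. A probe of chrX:120300373-120302404 (forward) fell by 1.79 ± 0.15 on the log2 scale (adjusted p = 0.0017).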

How the data were processed

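Total liver RNA of 9 mice was labelled with Cy3 and hybridised to Agilent SurePrint G3 arrays. The files deposited by the authors hold spot intensity on a linear scale from Feature Extraction 11.5.1.1, background-subtracted and not normalised between arrays, with the median intensity of the spot and its background. The mouse build is mm9. Log2 processed intensity was centred on the 75th percentile of each array's 59305 non-control spots. Spots with outlier flags were left out (161 to 217 per array) and no spot was saturated. Probes entered the tests where a share of 0.5 or more of their spots had the flag for signal well above background on each array of 1 group. The fit used limma 3.58.1 (R 4.3.3; lmFit and eBayes, two-sided) with all 9 arrays, with 6 residual degrees of freedom. The number of arrays limits the precision, and p-values measure the spread between these mice only. Regions were named by a fixed rule: not overlapping between groups, called, 1 probe per interval, then ranked by size (8 per direction against Normal for STAM-NON and 4 for STAM-INS among probes detected on all arrays, 4 bounds per direction, all calls between STAM groups), plus the intervals with the most members (ties kept) and 5 loci. Intervals on chromosome 18 were counted and not named. The members and lists were chosen with earlier results of these data known. Names come from a RefSeq table of GRCm38.p6, used for names only. The normexp alternative (offset 50) used median spot intensities. Other alternatives changed the scaling, the filter, the arrays fitted and the blocks. The code was tested on simulated data.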

Additional observations from a re-analysis of the deposited data

Results flagged for a closer look

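Region probes outside the members were also well above background on some STAM arrays. Of 12038 such probes, 32.8% had signal on STAM-INS replicate 1, 28.3% on STAM-NON replicate 3, and 20.1% on replicate 1 of the latter group. Each share lies above those of the Normal arrays (2.85% to 9.03%), while the other STAM arrays lay between 2.002% and 6.76%. These probes enter no comparison, and the cause was not tested.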

How the results depend on the processing

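For STAM-NON against Normal the 668 called members became 347 with spike-in centring, 52 with no filter on dim probes, 396 with the 2 groups alone, 382 regions with 1 value per interval, 74 at an adjusted p of 0.01, 229 with a 2-fold change as well, 42 without the 3 arrays with the most spots, 6 with the slide row as a block, and 175 to 875 without each replicate in turn. For STAM-INS against Normal the 730 became 416, 98, 402, 137 and 248 under spike-in centring, no filter, 1 value per interval, adjusted p of 0.01 and 2-fold change, 468 with the slide row, and 221 to 839 without each replicate. For STAM-INS against STAM-NON the 9 became 2 with normexp, 4 with no filter, with the 2 groups alone and at an adjusted p of 0.01, 0 with the filter on all 9 arrays (limma, where none of the 9 can enter, with 258 members at an unadjusted p under 0.05), and 4 to 10 without each replicate. Within slide row 1, with 1 STAM-INS array (chosen after seeing the data), 5 members were called, 1 of them higher and 2 detected on all arrays, and 1 of the 8 named probes kept its call. With the slide row as a block 8 were called, 1 higher and 7 lower. With the replicate number as a block the 3 counts were 348, 4 and 361. Arrays with the same number correlated at -0.29 to 0.15 in their deviations, so the number pairs no mice here. With no filter the STAM-NON calls against Normal split into 27 higher and 25 lower. The slide row block rests on the STAM-INS arrays, the only group in both rows. Under it chr13:108653722-108654406 turned to -0.15 between STAM-NON and Normal (adjusted p = 0.81), the only reversal among 44 named probe differences over the alternatives run, and 33 others lost their call. A random slide block was not run, since each group lies on 1 slide. The cause of these changes was not tested. Signal near background limits the reading of dim probes.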
